A study of Arabidopsis thaliana with 6 samples.

Results

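The plastid NADH dehydrogenase-like (NDH) complex genes described here are ndhA, ndhC, ndhD, ndhE, ndhF, ndhG, ndhH, ndhI, ndhJ and ndhK. Each of the 10 genes was read by 1 probe set that names it alone in the platform's gene table, and its place in the plastid genome was taken from the Arabidopsis gene table (TAIR10.1). They were 10 of the 69 plastid-encoded genes and of the 11392 genes in all that were measured by name on every array, and all 10 are among the 19578 probe sets that could be tested, of 22810 listed. The probe set of ndhB, which lies in the inverted repeat, names both copies and was left out.

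The NDH complex sits in the thylakoid membrane, where it takes electrons from ferredoxin and returns them to plastoquinone, so that electrons cycle around photosystem I and protons are moved for ATP synthesis without net NADPH. It is related to respiratory complex I. A membrane arm and an arm exposed to the stroma are encoded in part by the plastid, and the nucleus encodes further subunits, the assembly factors and the proteins that edit and process the ndh transcripts. The plastid genes lie in separate transcription units: ndhH, ndhA, ndhI, ndhG, ndhE and ndhD follow each other in the ndhH operon with the photosystem I gene psaC between ndhE and ndhD, ndhC, ndhK and ndhJ form a second cluster (the ndhC group), and ndhF stands apart.

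The samples were shoots of Brassica oleracea var. alboglabra, line A12dH, a doubled haploid, in 2 groups of 3: phosphate-starved and nutrient-replete. Per the labels, all plants had a daylength of 16 h at 22 °C in compost, were watered with deionised water and came from seed stratified at 4 °C for 3 to 5 days. Here nothing states how phosphate was withheld. RNA was hybridised to Affymetrix ATH1 arrays, designed for Arabidopsis thaliana, which is also the organism named in the sample records, so each gene name stands for the Arabidopsis gene that the probes were designed for. Nothing in the labels shows that the replicates were separate plants, so the p-values cover the spread among these arrays alone, and part of it may be technical. In whole shoots, fewer cells of a type and less RNA per cell cannot be told apart. The way the RNA was primed for labelling is not given here, and plastid transcripts carry no stable poly(A) tails.

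The arrays fall into 2 processing sets that stand apart. The first set is the pair of replicate 1 arrays, which list 22810 probe sets, and the second set is the 4 arrays of replicates 2 and 3, which list 19642. Across probe sets, arrays of 1 set correlated at r = 0.903 to 0.927 and arrays of different sets at 0.608 to 0.633. Each set holds both groups, so phosphate-starved and nutrient-replete shoots were compared within each of them and jointly with the set as a block. Differences are phosphate-starved minus nutrient-replete on the log2(signal + 16) scale, which understates the change of dim genes, and the small number of arrays limits the precision. Of 12 shoot markers 3 were measured by name, and their signals ran from 588 to 3497 in phosphate-starved and from 760.0 to 5089 in nutrient-replete shoots. Of 11 root markers 3 were measured, with signals of 8.10 to 136 in phosphate-starved and 6.70 to 105 in nutrient-replete shoots. These lists have few measured members and are a partial check of the tissue.

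Over both sets, 9 of the 10 ndh genes had lower estimates in phosphate-starved shoots, and ndhG was the exception. Lower estimates were also found for 39 of the 59 other plastid genes and for 9280 of the 19578 probe sets. No ndh gene passed the adjusted threshold of 0.05 in limma's fit with the set as a block, in which 0% of the 19578 probe sets did. On simulated data this fit passed 30 of 100 changes of log2 1.5. A gene that misses the threshold is thus not shown to be unchanged. At an unadjusted p under 0.05 there were 3 ndh genes, ndhH, ndhK and ndhJ, all lower, where 3.2% of all probe sets were lower at that p. Among the 59 other plastid genes, 10 were lower and 0 higher at that p. No ndh gene was higher at that p, as 2.71% of all probe sets were. The count of 9 rests on the first set: in the second set 5 of 10 were lower, and the 5 others were higher. The median difference of the 10 genes was -0.46 in the first set and -0.083 in the second, beside 0.016 and 0.022 over all tested probe sets. In the second set alone ndhH and ndhK had an unadjusted p under 0.05 (limma, 3.79% of all probe sets lower at that p, and 0% past the adjusted threshold). In both sets without overlap, 4 of 10 were lower in phosphate-starved shoots, namely ndhH, ndhC, ndhK and ndhJ, against 8.59% of all probe sets. So were 13 of the 59 other plastid genes. In the first set, with 1 array per group, no overlap means only that the phosphate-starved array was lower. There 9 of 10 ndh genes and 58 of 59 other plastid genes were lower. None of the 10 was higher in both sets in this way, as 12.5% of all probe sets were. In the second set, where these same 4 genes were lower without overlap (16.1% of all probe sets), only ndhA was higher without overlap (23.2%).

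**Figure D1:**
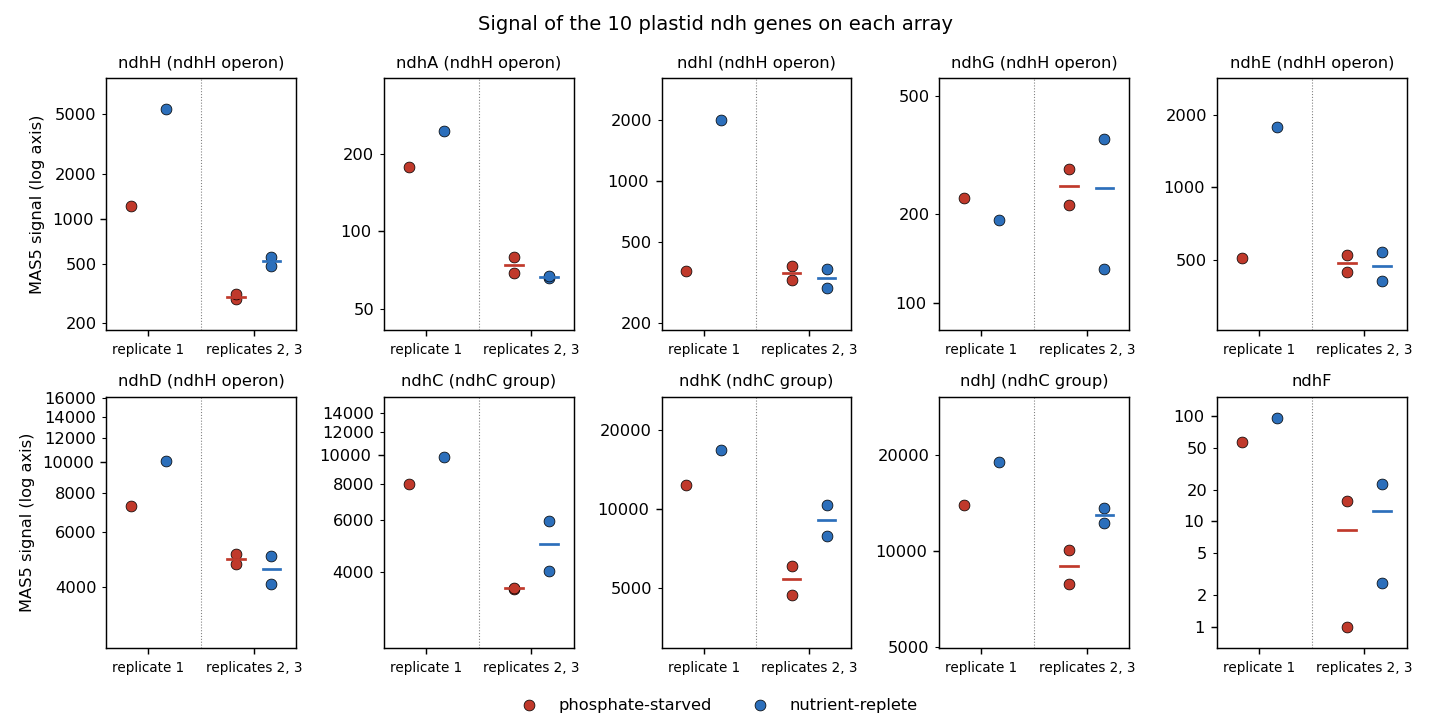
MAS5 signal (log axis) of each of the 10 ndh genes on each array, with phosphate-starved arrays left of nutrient-replete ones within each processing set; points are single arrays, and short lines are means of the replicate 2 and 3 arrays. The ndhC, ndhK, ndhJ and ndhH points of phosphate-starved shoots lie under those of nutrient-replete shoots in both sets, and the nutrient-replete replicate 1 points of ndhI and ndhE stand far above all others.

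The ndhC group had lower signals in phosphate-starved shoots in both sets, by similar amounts. The gene ndhJ encodes a subunit of the stroma-exposed arm. Its signal was 13964, 10059 and 7898 on phosphate-starved replicates 1 to 3, against 19059, 13655 and 12205 on nutrient-replete replicates 1 to 3. Within each set the phosphate-starved arrays lay below the nutrient-replete ones, while over all 6 arrays the groups overlapped, because the arrays of the first set were brighter. The group means were 10640.0 ± 3075 and 14973 ± 3612 (SD, n = 3 each). The difference was -0.51 ± 0.16 (SE), with an unadjusted p of 0.019 and an adjusted p of 0.788 in limma's fit with the set as a block.

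The gene ndhK encodes an iron-sulfur subunit of the stroma-exposed arm, next to the quinone site. It had signals of 12305, 6080 and 4700.3 on the phosphate-starved arrays, against 16686, 10306 and 7864 on the nutrient-replete arrays. The lowest signals were again on the phosphate-starved replicate 2 and 3 arrays, with no overlap within either set. Its difference was -0.65 ± 0.19 (SE), with an unadjusted p of 0.015 in the same fit and an adjusted p of 0.788. It was -0.44 in the first set and -0.75 ± 0.26 in the second, where the phosphate-starved mean was 0.593 of the nutrient-replete mean, the lowest ratio of the 3 genes.

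The gene ndhC encodes a small subunit of the membrane arm. It read 8013, 3499 and 3527 on the phosphate-starved arrays, against 9911, 5963 and 4024 on the nutrient-replete arrays. The groups were parted within each set, narrowly so on the replicate 3 arrays, and the difference was -0.42 ± 0.18 (SE) with an unadjusted p of 0.062 (limma). Without nutrient-replete replicate 2 it was -0.24.

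The profiles of these 3 genes lay close together. After the mean of each set was taken off, they were 0.110 to 0.169 log2 units apart (root mean square over the 6 arrays). Pairs within the ndhH operon lay 0.125 to 0.920 apart. The group difference stays in these profiles, so the distances in part restate that the 3 genes had similar group differences. They do not show that replicates of a group varied alike. All 3 genes of the ndhC group belong to the bright end of the scale, where the highest signal of an array was 20099.8 to 26226. With quantile normalization their differences were smaller, at -0.28 for ndhC, -0.41 for ndhK and -0.30 for ndhJ, and no unadjusted p of the 3 was then under 0.05.

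In the ndhH operon, ndhA, ndhI, ndhE and ndhD had differences of opposite sign in the sets, those in the second set being smaller than their SE. The estimate of ndhG was higher in both sets (0.23 and 0.17). The only member with lower values in both without overlap was ndhH itself. The gene encodes a subunit of the stroma-exposed arm near the quinone site. It had signals of 1213, 289.9 and 312 on the phosphate-starved arrays, against 5381, 559 and 480.4 on the nutrient-replete arrays. Nutrient-replete replicate 1 was by far the highest, and both groups were tight on the replicate 2 and 3 arrays. The difference was -1.21 ± 0.30 (SE), with an unadjusted p of 0.0080 and an adjusted p of 0.788 in the blocked fit. The first set gave -2.13 and the second -0.75 ± 0.15, with an unadjusted p of 0.0073 and an adjusted p of 0.523 there (limma).

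The gene ndhI encodes an iron-sulfur subunit of the stroma-exposed arm. It read 360.1, 381 and 325 on the phosphate-starved arrays, against 1991, 370.1 and 296 on the nutrient-replete arrays. All but 1 array lay within a narrow band, and nutrient-replete replicate 1 stood far above it. The difference was -2.42 in the first set and 0.083 ± 0.19 in the second.

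The gene ndhE, for a small membrane subunit, had the same shape. Its signal was 507, 444 and 524 on the phosphate-starved arrays, against 1777, 536 and 408 on the nutrient-replete arrays. Its difference was -1.78 in the first set and 0.044 ± 0.20 in the second.

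For these 3 genes the contrast between the sets was tested as an interaction of group and set. The difference in the second set exceeded that in the first by 2.50 ± 0.32 (SE) for ndhI, by 1.82 ± 0.35 for ndhE and by 1.38 ± 0.25 for ndhH. The unadjusted p from limma were 0.0020, 0.0078 and 0.0062, where 5.43% of all probe sets had an interaction of that sign at an unadjusted p under 0.05. So did 25 of the 59 other plastid genes, beside these 3 of the 10 ndh genes. None passed after adjustment over all probe sets, with adjusted p of 0.183, 0.277 and 0.250, and 0 of 19578 probe sets did. With 1 array per group in the first set, its values have no replicate check. The SE and p of the interaction thus rest on the spread of the replicate 2 and 3 arrays alone. They take the first set to have the same spread, which could not be checked. The adjusted test passed few of the interactions put into simulated data, so a gene that misses it is not shown to differ alike in both sets.

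The other operon genes had small differences over both sets, at -0.080 for ndhD, -0.061 for ndhA and 0.19 for ndhG. In the first set, those of ndhD and ndhA were about as large as those of the ndhC group (-0.31 to -0.45). The gene ndhD, for an antiporter-like subunit of the membrane arm, had signals of 7269, 5111 and 4748 on the phosphate-starved arrays, against 10115, 5046 and 4081 on the nutrient-replete arrays. Its groups overlapped in the second set, and its difference was -0.48 in the first set and 0.12 ± 0.19 in the second. The gene ndhA, for the subunit that joins the arms, read 178, 68.6 and 79.8 on the phosphate-starved arrays and 246, 66.1 and 67.1 on the nutrient-replete arrays. It was lower in the first set (-0.43) and slightly higher in the second (0.12 ± 0.30).

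The gene ndhG encodes another membrane subunit. It had signals of 226, 213 and 283 on the phosphate-starved arrays, against 190.2, 129.6 and 358 on the nutrient-replete arrays. The nutrient-replete replicates 2 and 3 lay on either side of both phosphate-starved ones, so its higher estimate of 0.19 ± 0.37 (SE) was within the spread between arrays (unadjusted p 0.632, limma). Without nutrient-replete replicate 2 it was -0.19.

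The gene ndhF, for the antiporter-like subunit at the far end of the membrane arm, was too dim to read well. Its signal was 56.4, 1.00 and 15.6 on the phosphate-starved arrays, against 94.4, 2.60 and 22.6 on the nutrient-replete arrays. The replicate 2 arrays of both groups were near 0, and the groups overlapped in the second set. Its difference was -0.34 ± 0.39 (SE) with an unadjusted p of 0.421 (limma). In the second set its signals lay under or near the offset of 16. The difference was -0.68 without nutrient-replete replicate 2 and -0.080 without nutrient-replete replicate 3.

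**Figure D2:**
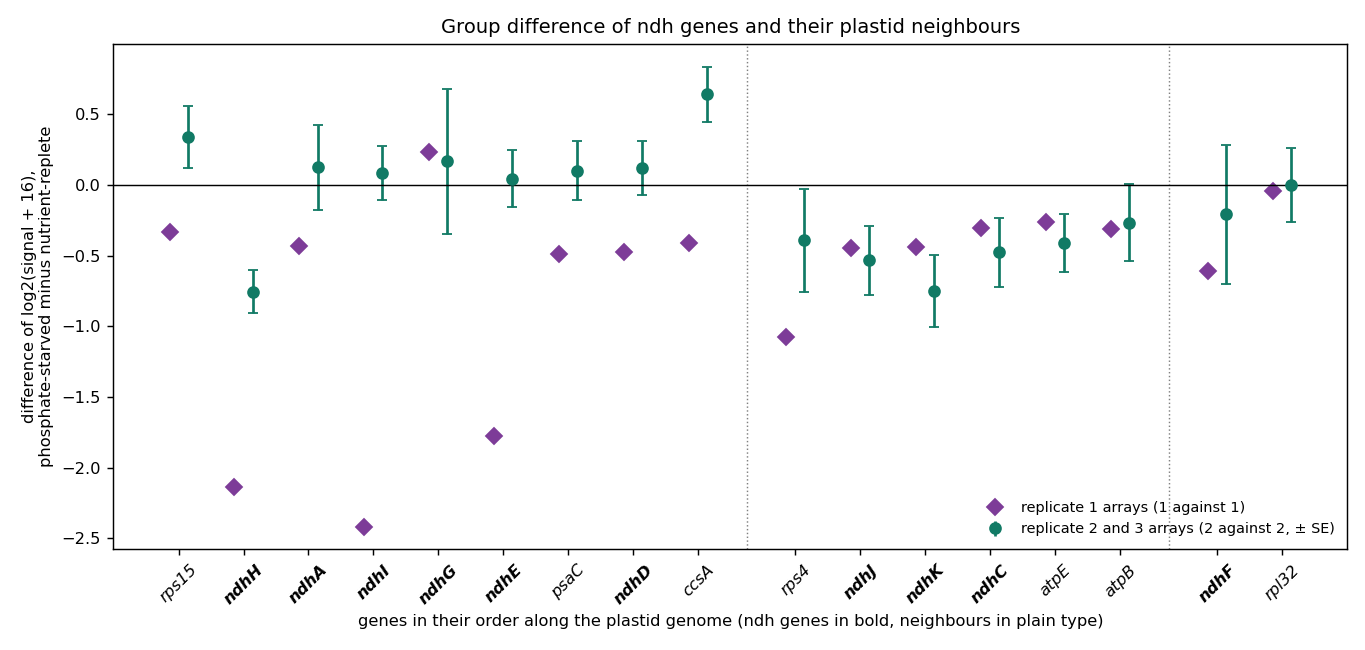
Difference of log2(signal + 16), phosphate-starved minus nutrient-replete, for the ndh genes and the measured neighbours of their clusters in the order of the plastid genome; diamonds are the replicate 1 arrays (1 against 1) and circles the replicate 2 and 3 arrays with limma's SE. The diamonds of ndhH, ndhI and ndhE lie at -2.13, -2.42 and -1.78 with smaller differences between and beside them, and both symbols of ndhJ, ndhK and ndhC lie between -0.31 and -0.75.

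The transcription units were then compared by the mean log2 value of their members on each array, as a description with no test. The mean of the ndhH operon differed between the groups by -1.17 in the first set and by -0.036 in the second. That of the ndhC group differed by -0.40 and by -0.59, and ndhF by -0.61 and by -0.21. The operon mean minus the ndhC group mean was -4.08, -3.83 and -3.50 on the phosphate-starved arrays, against -3.31, -4.42 and -4.02 on the nutrient-replete arrays. The group difference of this value was -0.77 in the first set and 0.55 in the second, where arrays of 1 group had a standard deviation of 0.26. The operon mean minus ndhF gave group differences of -0.56 and 0.17, with a standard deviation of 0.65 between arrays of a group, and so it did not part the groups beyond their spread in the second set. Neither contrast had the same sign in both sets.

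Within the operon, large and small differences alternated on the replicate 1 arrays. In gene order, ndhH, ndhI and ndhE had -2.13, -2.42 and -1.78, whereas ndhA between ndhH and ndhI had -0.43, ndhG between ndhI and ndhE had 0.23, and ndhD at the end had -0.48. The gene psaC, which encodes the iron-sulfur protein of photosystem I, lies between ndhE and ndhD and had -0.49. The 3 genes with large differences are thus not neighbours of each other. On the log2(signal + 16) scale, values 1.5-fold or more lower in the phosphate-starved sample of the first set were seen for 4 of 10 ndh genes, these 3 and ndhF, and for 12% of all probe sets and 34 of the 59 other plastid genes. No ndh gene was 1.5-fold or more higher there, as 10.8% of all probe sets were.

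Most plastid genes had lower values in the phosphate-starved sample of the first set, so the ndh genes were set beside them. In that set 9 of 10 ndh genes and 58 of 59 other plastid genes were lower, where 48% of all probe sets were. The median of the 59 was -0.75 there and 0.011 in the second set. Measured from those medians, ndhC, ndhK and ndhJ stood at 0.45, 0.31 and 0.31 in the first set and at -0.49, -0.76 and -0.55 in the second. Relative to other plastid transcripts, the cluster was therefore above the median in the first set and below it in the second. On the same footing ndhH stood at -1.38 and -0.77, below the median in both sets.

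Ordered from the lowest difference among the 69 plastid genes, ndhK was number 5, ndhJ number 9, ndhC number 11 and ndhH number 4 on the replicate 2 and 3 arrays. On the replicate 1 arrays ndhI was number 5, ndhH number 10 and ndhE number 12, while ndhC was number 58 and ndhG number 68. Of the 59 other plastid genes 13 were lower in both sets without overlap. When each array was centred on its plastid probe sets, which moved the median difference of all probe sets to 0.34, the ndhH difference was -0.89 and those of ndhC, ndhK and ndhJ were -0.10, -0.32 and -0.18, with an unadjusted p of 0.064 for ndhH and over 0.05 for the others. Only ndhH was then lower in both sets without overlap.

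**Figure D3:**
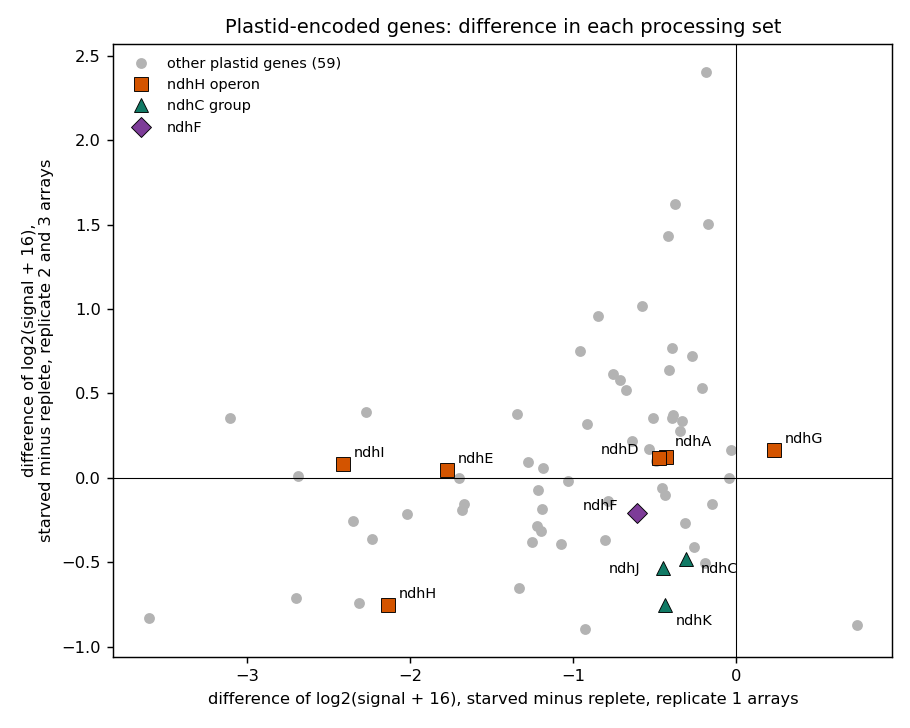
Difference of log2(signal + 16), phosphate-starved minus nutrient-replete, of the 69 plastid-encoded genes on the replicate 1 arrays (horizontal axis) and on the replicate 2 and 3 arrays (vertical axis); grey points are the 59 other plastid genes. The ndhC group (triangles) lies below 0 on both axes, ndhI and ndhE lie far left near 0 on the vertical axis, and ndhH lies low on both.

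The 25S ribosomal RNA control moved with the plastid genes on the replicate 1 arrays. Its signal was 881, 175 and 335 on the phosphate-starved arrays, against 3767, 111 and 101 on the nutrient-replete arrays. It was thus lower in the phosphate-starved sample of replicate 1, as were ndhH, ndhI and ndhE, and higher in those of replicates 2 and 3. The log2 ratio of 3' over 5' signal of 6 actin, GAPDH and ubiquitin control pairs had group differences of -0.50 to 0.029 in the first set and -0.33 to 0.56 in the second. The part of either in the ndh results was not tested.

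Of the 9 plastid neighbours listed, 7 were measured by name, and 0 passed the adjusted threshold (limma, with 1 at an unadjusted p under 0.05). Over all 19578 probe sets, 1157 had an unadjusted p under 0.05 in that fit. The ATP synthase gene atpE, which lies beside ndhC, had signals of 14740, 8220 and 8375 on the phosphate-starved arrays, against 17664, 11632 and 10452 on the nutrient-replete arrays. Like the ndhC group it was lower within both sets without overlap, with a difference of -0.36 ± 0.13 (SE) and an unadjusted p of 0.036. Its partner atpB had -0.28 ± 0.18, and rps4, a ribosomal protein gene on the side of ndhJ, had -0.62 ± 0.28. The groups overlapped in the second set for both atpB and rps4. For rps4 the difference was -1.08 in the first set and -0.39 ± 0.37 in the second.

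Neighbours of the operon behaved otherwise. The gene ccsA, for a protein of cytochrome c assembly beside ndhD, read 2872, 1884 and 2217 on the phosphate-starved arrays, against 3828, 1481 and 1149.8 on the nutrient-replete arrays. It was lower in the phosphate-starved sample of the first set (-0.41) and higher in those of the second (0.64). The ribosomal protein gene rps15, beside ndhH, had -0.33 and 0.34, and psaC had -0.49 and 0.099. The ribosomal protein gene rpl32, beside ndhF, had -0.043 and -0.0022, with signals that overlapped between the groups in the second set.

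Of 20 listed nuclear genes for NDH subunits and for the linkers to photosystem I, 3 were measured on all arrays, 1 on the replicate 1 arrays alone, and 16 not by name. None of the 3 passed the test (limma, 0 also at an unadjusted p under 0.05), and their median difference was 0.50, beside 0.017 over all probe sets. NdhL (AT1G70760), which anchors the stroma-exposed arm, had signals of 331, 94.8 and 298 on the phosphate-starved arrays, against 273, 122 and 89.5 on the nutrient-replete arrays. Its groups overlapped in the second set, and the difference was 0.50 ± 0.41 (SE).

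NdhS (AT4G23890), of the site that binds ferredoxin, was dim on all arrays, at 15.1, 6.80 and 3.10 in phosphate-starved and 3.10, 4.60 and 5.10 in nutrient-replete shoots. It had a difference of 0.24 ± 0.17 (SE), which came from the first set (0.70, 1 array against 1), with 0.0014 in the second. The locus AT2G04039, also on this list, read 84.9, 28.8 and 52.7 in phosphate-starved and 149.9, 6.30 and 12.7 in nutrient-replete shoots. Its difference had opposite signs in the sets, at -0.72 in the first and 1.13 in the second.

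Among factors for assembly of the complex and for ndh transcripts, 10 of 23 listed genes were measured, 5 with higher and 5 with lower estimates, and a median of -0.0059. None passed the adjusted threshold, and 2 had an unadjusted p under 0.05 (limma), as 1157 of all 19578 probe sets did. OTP85 (AT2G02980), a protein of ndhD transcript editing in Arabidopsis, had signals of 2.00, 18.9 and 10.9 on the phosphate-starved arrays, against 34.3, 61.1 and 105 on the nutrient-replete arrays. All phosphate-starved arrays lay below all nutrient-replete ones, as 1.92% of all probe sets did. Its difference was -1.60 ± 0.28 (SE), with an unadjusted p of 0.0017 and an adjusted p of 0.788. The signals in phosphate-starved shoots are near or under the offset.

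The locus AT5G45170 had signals of 341, 992 and 1012 in phosphate-starved and 358, 384 and 329 in nutrient-replete shoots. Both replicate 1 arrays and the nutrient-replete ones were alike, and only phosphate-starved replicates 2 and 3 stood above them, with a difference of 0.95 ± 0.33 (SE) over both sets and an unadjusted p of 0.030 (limma). Its interaction with the set had an unadjusted p of 0.0046 and an adjusted p of 0.230 (limma), again with a spread from the second set alone. CRR21 (AT5G55740), another editing factor of ndhD in Arabidopsis, had 0.62 ± 0.41, and AT4G37380 had -0.14 ± 0.11.

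**Figure D4:**
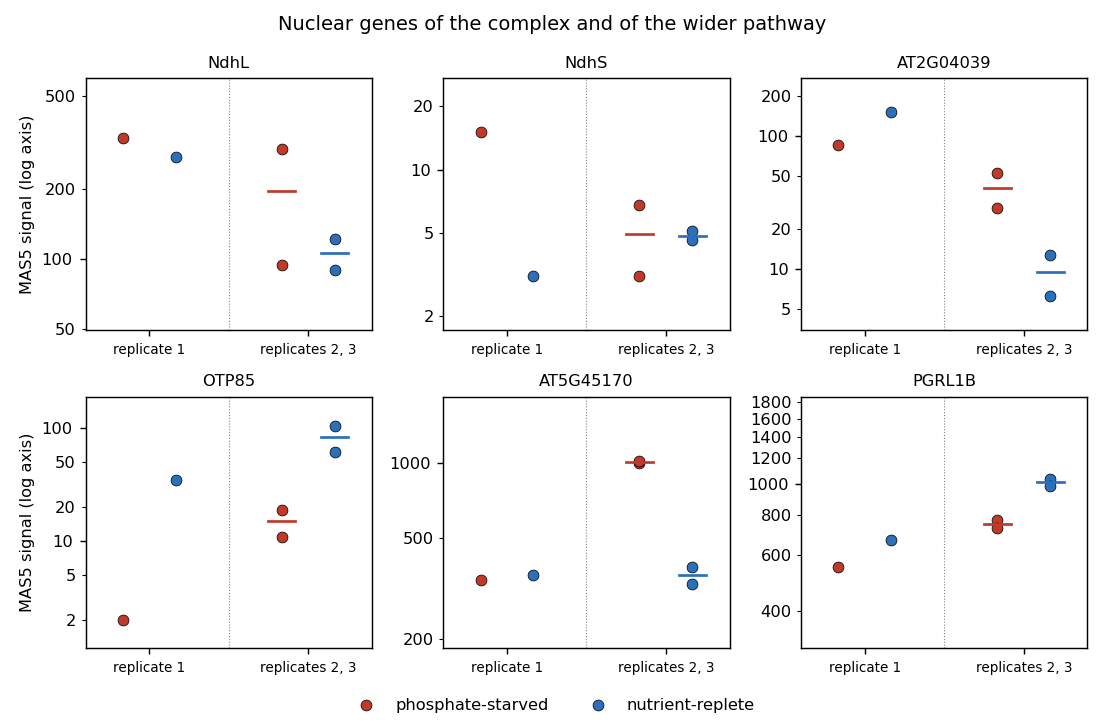
MAS5 signal (log axis) on each array of 6 nuclear genes, with phosphate-starved arrays left of nutrient-replete ones within each processing set; points are single arrays, and short lines are means of the replicate 2 and 3 arrays. OTP85 and PGRL1B are lower in phosphate-starved shoots in both sets, whereas AT5G45170 and AT2G04039 differ between the sets.

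The other route of cyclic electron flow, which needs PGR5 and its partner PGRL1, was read through PGRL1B (AT4G11960) alone. Its signal was 549.9, 771 and 727 on the phosphate-starved arrays, against 668, 1038 and 984 on the nutrient-replete arrays. The phosphate-starved arrays were lower within both sets, and the difference was -0.37 ± 0.12 (SE) with an unadjusted p of 0.020 and an adjusted p of 0.788 (limma). NDC1 (AT5G08740), a plastid NAD(P)H dehydrogenase of another type, had -0.39 ± 0.59. The other 7 genes of this list, and all 6 plastid sigma factors, including the SIG4 that acts on ndhF in Arabidopsis, were not measured by name.

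Finally, among 5377 brighter probe sets that name 1 gene, the profiles nearest to the mean of the ndhH operon were those of RL2 (AT5G45160), AT5G56700, AT1G18460, AT2G47020 and AT1G18660. They lay 0.050, 0.055, 0.075, 0.084 and 0.085 log2 units from it (root mean square over 6 arrays after the mean of each set was taken off). All 5 are nuclear and were lower in the phosphate-starved sample of replicate 1, by -0.98 to -1.39, with -0.14 to 0.12 in the second set. A flat profile lay 0.339 from that mean. Pairs of operon members lay 0.125 to 0.920 apart, so the mean does not describe each member. Brighter here means the upper 50% by mean log2 value, and the 5 genes had mean signals of 43.9 to 134 in phosphate-starved and 59.2 to 140 in nutrient-replete shoots. With 6 arrays such nearness is a description alone.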

How the data were processed

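Per the submitters' processing notes, the deposited intensity values were made with MAS5, which gives a linear signal per probe set; its version, any masking of probes and what separates the 2 processing sets are not stated in the labels. Each array was scaled to a 2% trimmed mean of 100, which changed the deposited intensity little, and log2(signal + 16) was taken. After 64 control probe sets were left out, all 19578 shared probe sets were fitted with limma 3.58.1 in R 4.3.3 (lmFit, eBayes with trend, two-sided, Benjamini-Hochberg over all of them at 0.05). The main fit had group and processing set as terms, and a fit with their interaction and one on the replicate 2 and 3 arrays alone were also run. The fits were tested on simulated data, in which the adjusted interaction test passed few of the simulated interactions.

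The platform's gene table lists 14016 probe sets, of which 13513 name 1 gene, and 13436 of these matched the TAIR10.1 table. Gene order came from that table, and no coordinates or sequences are printed. The members, the lists and the processing set as a block in the main fit were chosen with earlier results of these data known. Named were all members, measured plastid neighbours, nuclear subunits and sigma factors, up to 4 genes of smallest unadjusted p per other pathway list, and the 5 profiles nearest to the operon.

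Same-numbered arrays of the groups deviated together from their group means (r 0.839, 0.551 and 0.530 for replicates 1 to 3, across probe sets). This holds the distance between the processing sets, and within the second set r was 0.016. The alternatives were other blocks, offsets, scalings, a filter on dim probe sets, eBayes without trend and leaving out each array.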

Additional observations from a re-analysis of the deposited data

Results flagged for a closer look

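NdhN (AT5G58260), a nuclear subunit gene of the stroma-exposed arm, is listed on the replicate 1 arrays alone, so no fit used it. Its signal was 295 on the phosphate-starved array and 254 on the nutrient-replete array, and it was set apart as a signal outside the comparisons that was higher than in the control sample. This is 1 array against 1, with no replicate check. Between these arrays 48% of all tested probe sets were lower in the phosphate-starved sample, so a higher signal there is common. Groups of 3 arrays were not screened for single arrays that stand apart.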

How the results depend on the processing

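No ndh gene and no gene of the other pathway lists passed the adjusted threshold under any alternative run. The count of ndh genes with an unadjusted p under 0.05, 3 in the main analysis, was 0 without the processing set block (whose median SE was 0.52, against 0.26 with it), 1 with quantile normalization, 0 with centring on plastid probe sets, and 1 to 4 with single arrays left out, the 1 being without phosphate-starved replicate 3. The count of lower ndh genes was 5 on the replicate 2 and 3 arrays alone and 5 to 10 with single arrays left out, the 5 being without either replicate 1 array. The count lower in both sets without overlap was 1 with centring on plastid probe sets and 4 to 5 without single arrays of the second set. No share over all probe sets was taken for these settings. With an array left out, groups are less likely to overlap for any probe set, so the 4 to 5 do not show that the count is stable. With the replicate number as a block 3 ndh genes had an unadjusted p under 0.05 (0.015 for ndhH, 0.0089 for ndhK and 0.020 for ndhJ), so the replicate block changed no call.

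Signs turned for 5 genes. On the replicate 2 and 3 arrays alone the log2 difference was 0.12 for ndhA, 0.083 for ndhI, 0.044 for ndhE and 0.12 for ndhD. With centring on plastid probe sets it was 0.26 for ndhA and 0.24 for ndhD, and with quantile normalization 0.16 for ndhD. With single arrays left out it ran from -0.17 to 0.12 for ndhA, -1.08 to 0.083 for ndhI, -0.19 to 0.58 for ndhG, -0.85 to 0.044 for ndhE and -0.22 to 0.12 for ndhD. The cause was not tested. The differences of ndhH, ndhC, ndhK, ndhJ and ndhF kept their sign in all alternatives run, which for ndhF do not include the brighter 50%, where it is not listed. The size of the ndhF difference did not hold: it was -0.52 with an offset of 4, -0.18 with an offset of 64 and -0.020 with centring on plastid probe sets, and ran from -0.68 to -0.080 with single arrays left out. The operon mean minus ndhF moved in the first set to -0.23 with quantile normalization, and in the second to 0.39 with an offset of 4 and 0.037 with an offset of 64. The ndhC group mean minus ndhF was 0.21 in the first set, 0.69 there with quantile normalization and -0.00056 with an offset of 64. In the second set it was -0.38, with -0.17 at an offset of 4 and -0.22 with quantile normalization. The first set has 1 array per group and so no spread of its own to set these moves against.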

Other observations

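A search for profiles near to the ndhC group, added after its values were seen and run over 5380 brighter probe sets that name 1 gene, gave AT3G18280, AT3G04920, AT5G05750, AT3G62960 and AT5G57460. They lay 0.037, 0.051, 0.066, 0.066 and 0.069 log2 units from the mean of ndhC, ndhK and ndhJ (root mean square over 6 arrays after the mean of each set was taken off), while a flat profile lay 0.295 away. All 5 are nuclear genes. AT3G18280 had a mean signal of 693 in phosphate-starved and 1024 in nutrient-replete shoots, and AT3G04920 had 196 and 310. No plastid gene outside the cluster was among the 5 nearest. As only 69 plastid-encoded genes were tested, this does not show that other plastid genes differ from the cluster.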
